A study of Mus musculus with 5 samples.

Results

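The genes described here are 58 components of T cell receptor signalling, taken by symbol from a fixed list of receptor chains, kinases, adaptors, Ras regulators, negative regulators, calcium channels, NFAT and NF-kB genes, out of 35976 genes with a row in the count files. All 58 had a row, and all 58 passed the filter on low counts, which kept 13666 genes. RNA was sequenced in bulk from mature CD8 single-positive (SP) thymocytes, sorted from mouse thymus by flow cytometry. The groups were Runx3 +/WRPW (n = 3), in which 1 of the Runx3 alleles is named WRPW, and Runx3 +/+ (n = 2), the wild type, and both contain the same sorted population. The labels give no age and do not say in which cells the WRPW allele is active. They also do not name the animals behind the libraries, so a p-value here reflects library-to-library spread that may be purely technical.

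The T cell receptor has no enzymatic activity of its own. When it binds its ligand, the kinase Lck phosphorylates tyrosines on the CD3 and zeta chains, Zap70 docks there and phosphorylates the scaffold Lat, and Lat gathers phospholipase C-gamma and Ras activators. Calcium then activates NFAT, diacylglycerol activates Ras and protein kinase C, and the Bcl10 and Malt1 complex releases NF-kB, while phosphatases, ubiquitin ligases and diacylglycerol kinases limit the signal. In the thymus the strength of this signal decides between survival and death of developing T cells and bears on the choice of the CD4 or CD8 lineage, in which Runx3 acts for CD8.

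The 5 libraries held 15715242 to 43758550 counts, and the listed genes took 2.26% to 2.36% of the counts of every library. Levels are in CPM, counts scaled to a common total over the tested genes and adjusted by TMM factors, which correct for differences in composition between libraries. Runx3 +/WRPW library 2 stood apart, with 27414 genes detected where the remaining libraries had 17237 to 18967. Over the 58 genes the median absolute log2 difference was 0.0717 to 0.125 between Runx3 +/WRPW libraries and 0.109 between the Runx3 +/+ libraries. Between libraries of different genotype it was 0.157 to 0.22, more than within either genotype. Each count of changed genes below is given with and without library 2.

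The sorted identity was checked on marker genes. The 7 markers of mature CD8 SP cells with a row summed to 5998 to 6551 CPM in Runx3 +/WRPW libraries and to 7031 to 7062 CPM in Runx3 +/+ libraries, with Cd8a called in neither direction (adjusted p = 0.86 in edgeR's quasi-likelihood test). The 7 B cell markers summed to 3.27 to 13.1 CPM in Runx3 +/WRPW and 9.76 to 9.79 CPM in Runx3 +/+, and the 7 myeloid markers to 5.9 to 13.0 CPM and 5.84 to 5.98 CPM. For the 6 double-positive or immature thymocyte markers the sums were 4.14 to 15.6 CPM and 17.2 to 20.0 CPM. In these 3 lists the highest Runx3 +/WRPW sum was that of library 2, where Ebf1 gave 7.22 CPM of the B cell sum and Arpp21 12.4 CPM of the immature one. Among single markers Cd79b of the B cell list (3.88-fold, edgeR adjusted p = 0.00426), Dntt of the immature list (3.57-fold, edgeR adjusted p = 0.028) and Ccr7 of the CD8 SP list (1.65-fold, edgeR adjusted p = 0.0114) were called lower. Lists for CD4-lineage, dendritic, epithelial, erythroid, NK and gamma-delta cells each summed to at most 13.8 CPM in any library. The gamma-delta list had only 1 gene with a row, Sox13, so its sum says little about those cells. Cd4 was uneven, at 0.467 and 5.36 CPM in Runx3 +/+ libraries 1 and 2 and at 0.160, 0.374 and 0.046 CPM in Runx3 +/WRPW libraries. The 5 markers of dividing cells, Mki67, Top2a, Birc5, Ccnb1 and Cdk1, were all called lower, with sums of 69.3 to 76.0 CPM in Runx3 +/WRPW libraries against 501 to 540 CPM in Runx3 +/+ libraries. Their part in the differences below was not tested, and in bulk RNA fewer cells of a type and less RNA per cell cannot be told apart. Runx3 itself was at 394, 341 and 422 CPM in Runx3 +/WRPW libraries 1, 2 and 3 and at 273 and 357 CPM in the Runx3 +/+ libraries, which overlap. Counts summed over a gene cannot tell the alleles apart, so they do not check the genotype labels.

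The comparison asked how transcripts of the receptor signalling machinery differ in CD8 SP thymocytes with 1 WRPW allele. Most were close to wild type, and 10 of the 58 passed the test at an adjusted p under 0.05 (17.2%), beside 13.6% of all tested genes. Of these, 9 were lower in Runx3 +/WRPW (15.5%, beside 7.33% of all tested genes) and 1 was higher (1.72%, beside 6.24%). The lower genes were the receptor chains Cd3d and Cd247, the scaffold Lat, the Ras regulators Rasgrp1 and Rasa2, the negative regulators Dgka, Ptpn7 and Sla2, and the transcription factor Nfatc3. The phosphatase gene Ptpn6 was higher. The log2 fold changes of the 58 genes ran from -0.96 to 0.91, so none reached 2-fold, called or not. Of all 13666 tested genes 1765 reached 2-fold, and 4.99% were called with at least a 2-fold change. The tested genes include genes with lower counts than any of the 58. Their median was -0.08, against 0.02 for all tested genes, and 35 of 58 were below 0. DESeq2 called 22 of the 58, beside 19.8% of all tested genes, with 14 lower (10.5% of all tested genes were) and 8 higher (9.34% were). Without Runx3 +/WRPW library 2, 7 were lower and 1 higher in edgeR, beside 10.8% of all tested genes called, and 5 of the 10 calls remained. Leaving out Runx3 +/WRPW library 1 gave 3 calls beside 5.71% of all tested genes, and leaving out library 3 gave 4 beside 6.97%. Leaving out Runx3 +/+ library 1 gave 4 calls beside 2.95% of all tested genes, and leaving out library 2 gave 2 beside 1.52%.

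**Figure D1:**
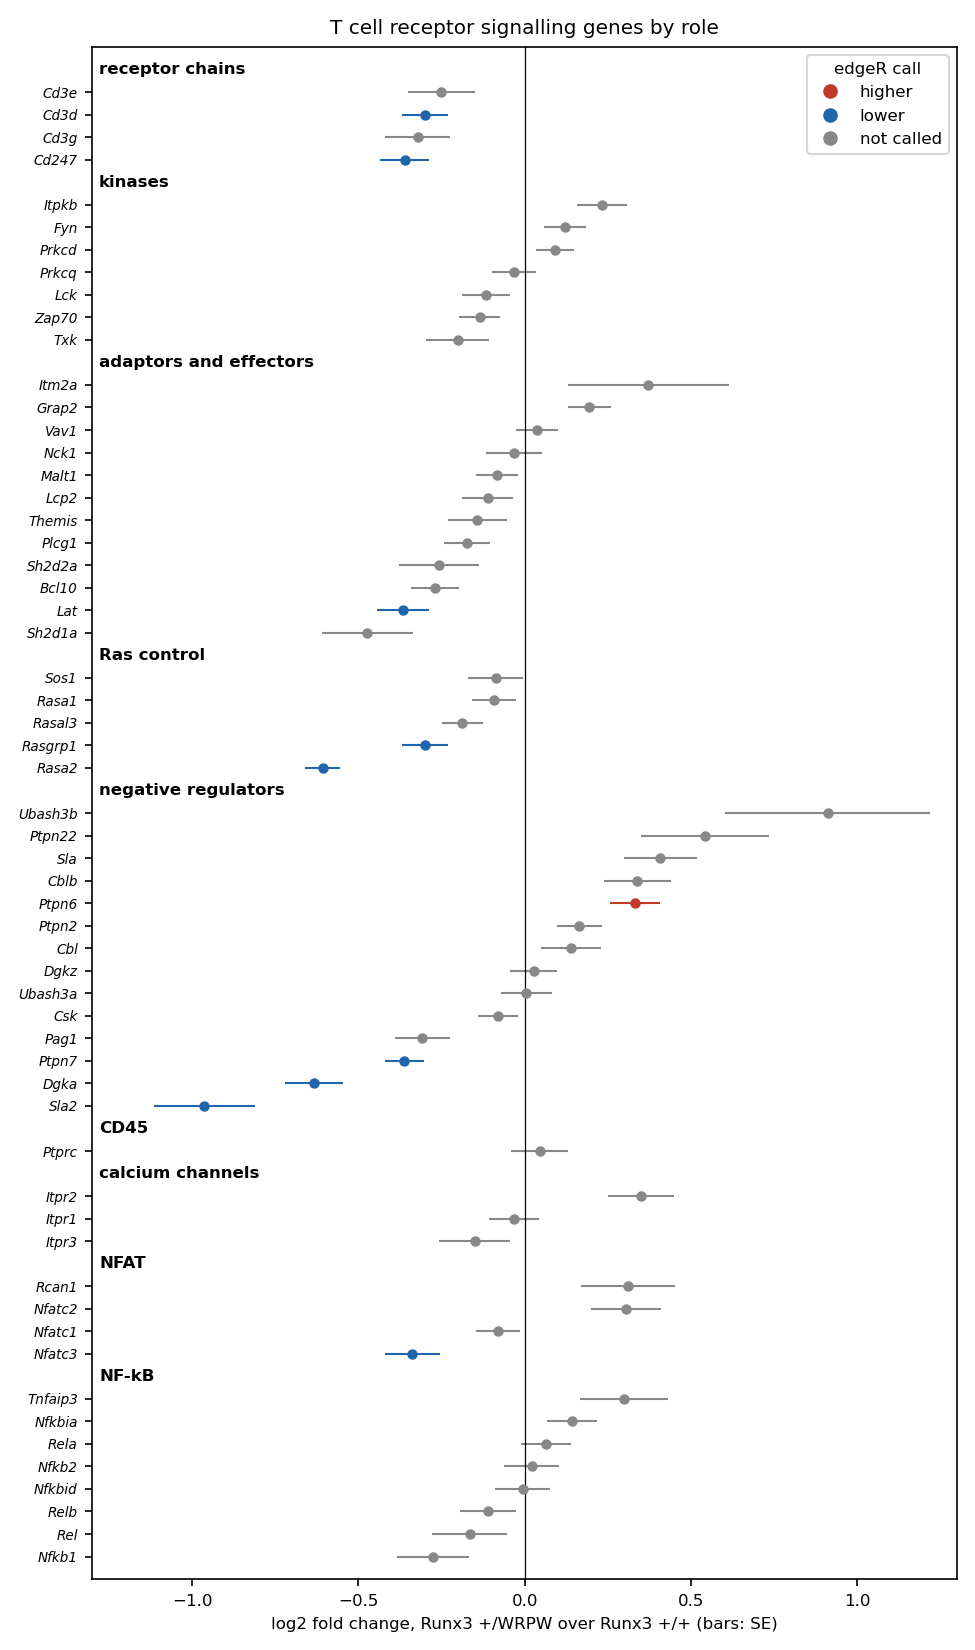
Log2 fold changes of the 58 genes, Runx3 +/WRPW over Runx3 +/+ (x axis, points with SE bars), with genes down the page by role and colours for the edgeR call. All 4 receptor chains and all 5 Ras regulators lie left of 0, and the negative regulators spread from -0.96 to 0.91.

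In 36 of the 58 genes (62.1%) the libraries of the genotypes did not overlap, beside 48.5% of all tested genes. All Runx3 +/WRPW libraries lay below both Runx3 +/+ libraries in 22 of them (23.8% of all tested genes did) and above in 14 (24.7% of all tested genes did). Transcript levels within the pathway differ widely, so they are compared here per kilobase of exon. In Runx3 +/+ cells Lck was the most abundant of the 58 per length, at 452 CPM per kilobase, followed by Lat at 312 and Dgka at 305 CPM per kilobase, while Ubash3b was the least abundant at 1.29 CPM per kilobase.

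Of the 4 receptor chain genes 2 were lower, by small amounts, and 2 did not pass. Cd3d, which encodes the delta chain of the CD3 complex (chromosome 9, 44981786 to 44987339, mm10), was at 389, 375 and 415 CPM in Runx3 +/WRPW libraries 1, 2 and 3, against 481 and 486 CPM in Runx3 +/+ libraries 1 and 2. The groups did not overlap, and the Runx3 +/+ libraries were nearly equal. Its log2 fold change was -0.30 ± 0.07 (SE), or 1.23-fold lower, with an edgeR adjusted p = 0.039. Cd247, which encodes the zeta chain with its several phosphorylation motifs (chromosome 1, 165788681 to 165877277), was at 280, 272 and 306 CPM in Runx3 +/WRPW libraries, against 368 and 368 CPM in Runx3 +/+ libraries. Here too every Runx3 +/WRPW library was lower, and the log2 fold change was -0.36 ± 0.07 (edgeR adjusted p = 0.0278).

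Cd3g, the gamma chain gene, was at 694, 664 and 782 CPM in Runx3 +/WRPW and at 948 and 834 CPM in Runx3 +/+. Its log2 fold change of -0.32 ± 0.10 did not pass (edgeR adjusted p = 0.0838). Cd3e, the epsilon chain gene, was at 815, 709 and 859 CPM in Runx3 +/WRPW and at 996 and 896 CPM in Runx3 +/+, with a log2 fold change of -0.25 ± 0.10 (edgeR adjusted p = 0.159). All 4 chains therefore had every Runx3 +/WRPW library below both Runx3 +/+ libraries, and 2 of 4 passed. Cd3g, Cd3d and Cd3e lie within 1 cluster on chromosome 9, where the start sites of Cd3d and Cd3g, transcribed away from each other, are 1355 bp apart, while Cd247 is on chromosome 1.

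DESeq2 called 3 chains lower, Cd3g with them, and limma-voom 2, while none was called with no low-count filter. The call of Cd3d was lost when any of the 5 libraries was left out (edgeR adjusted p = 0.0617 to 0.286), and that of Cd247 without Runx3 +/+ library 1 (adjusted p = 0.188) or 2 (adjusted p = 0.24) or Runx3 +/WRPW library 1 (adjusted p = 0.111). Without Runx3 +/WRPW library 2, 1 chain gene was lower. In the annotation 60.3% of the exon length of Cd247 is shared with other genes, among them Pou2f1 on the opposite strand. Pou2f1 was 1.26-fold higher in Runx3 +/WRPW, the direction opposite to Cd247 (edgeR adjusted p = 0.0223). The sources used here do not state whether counting used strand, so reads of such overlapping genes cannot be told apart.

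The tyrosine kinases Lck, Fyn, Zap70 and Txk, the protein kinase C genes Prkcq and Prkcd and the inositol trisphosphate kinase gene Itpkb gave no call. Of these 7 genes, 0 passed edgeR's test, 1 had an unadjusted p under 0.05, DESeq2 called 1 (Itpkb, higher) and limma-voom 0. Lck was at 1241, 1188 and 1240 CPM in Runx3 +/WRPW libraries and at 1252 and 1398 CPM in Runx3 +/+ libraries. The groups came close without overlapping, and the log2 fold change was -0.12 ± 0.07 (edgeR adjusted p = 0.346). Fyn, a Src-family kinase related to Lck, was at 669, 656 and 697 CPM in Runx3 +/WRPW and at 608 and 632 CPM in Runx3 +/+, with a log2 fold change of 0.12 ± 0.06 (edgeR adjusted p = 0.267). The remaining kinases had log2 fold changes from -0.20 for Txk, a Tec-family kinase, to 0.23 for Itpkb, which phosphorylates the second messenger inositol trisphosphate. Zap70, at -0.14 ± 0.06, Prkcq (protein kinase C-theta, which acts towards NF-kB) and Prkcd lay between them. Without Runx3 +/WRPW library 2 there was again no call among the kinases.

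Among adaptors and effectors Lat passed edgeR's test and was lower. This membrane scaffold gene (chromosome 7, 126363824 to 126369570) was at 700, 681 and 632 CPM in Runx3 +/WRPW libraries, against 819 and 910 CPM in Runx3 +/+ libraries. No library of either genotype crossed into the range of the other, and the log2 fold change was -0.37 ± 0.08, or 1.29-fold lower (edgeR adjusted p = 0.0337). Grap2, whose product GADS links Lat to SLP-76, was at 1280, 1227 and 1310 CPM in Runx3 +/WRPW and at 1143 and 1081 CPM in Runx3 +/+. The difference ran the other way from Lat, at 0.19 ± 0.07 on the log2 scale, and did not pass (edgeR adjusted p = 0.107).

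Among the 12 adaptor and effector genes 1 was lower, 0 higher and 11 did not pass. Log2 fold changes of the 11 lay between -0.47 for Sh2d1a, which encodes the adaptor SAP, and 0.37 for Itm2a, a membrane protein gene induced during thymocyte selection. Bcl10 (-0.27 ± 0.07, edgeR adjusted p = 0.0627), Sh2d2a, Plcg1, Themis, Lcp2 (the gene of SLP-76), Malt1 and Nck1 were below 0, and Vav1, an exchange factor of Rac, was at 0.04 ± 0.06. Itm2a was uneven, at 80.1, 145 and 103 CPM in Runx3 +/WRPW libraries, against 92.1 and 76.6 CPM in Runx3 +/+ libraries. In the annotation 26.6% of the exon length of Sh2d1a is shared with Tenm1 on the opposite strand. DESeq2 called 3 of the 12 lower, Lat, Bcl10 and Sh2d1a, and 1 higher, Grap2, and limma-voom called Lat and Sh2d1a lower. The call of Lat was lost without any of the 5 libraries in turn (edgeR adjusted p = 0.0656 to 0.253). Leaving out Runx3 +/WRPW library 2 gave 2 lower genes, Sh2d1a (adjusted p = 0.0421) and Sh2d2a (adjusted p = 0.0434).

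All 5 genes that switch Ras on or off had a log2 fold change below 0, and 2 of them passed. Rasa2, a GTPase-activating protein that turns Ras off (chromosome 9, 96539300 to 96631617), was at 95.9, 94.96 and 96.2 CPM in Runx3 +/WRPW libraries, against 148 and 143 CPM in Runx3 +/+ libraries. The libraries of each genotype were almost equal, with means of 95.7 ± 0.643 CPM in Runx3 +/WRPW (SD, n = 3) and 146 ± 3.57 CPM in Runx3 +/+ (SD, n = 2). Its log2 fold change of -0.61 ± 0.05, or 1.52-fold lower, had the smallest p of the 58 genes (edgeR adjusted p = 0.00215).

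Rasgrp1, the diacylglycerol-dependent activator of Ras (chromosome 2, 117279993 to 117343001), was at 438, 433 and 477 CPM in Runx3 +/WRPW, against 551 and 555 CPM in Runx3 +/+. The log2 fold change was -0.30 ± 0.07, or 1.23-fold lower (edgeR adjusted p = 0.0407). The activator Sos1 was at -0.09 ± 0.08, and of the other GTPase-activating proteins Rasa1 was at -0.09 ± 0.07 and Rasal3 at -0.19 ± 0.06 (edgeR adjusted p = 0.104). An activator and an inhibitor of Ras were thus both lower. Rasa2 passed in all 13 other settings tried, with an adjusted p of at most 0.0414 and log2 fold changes of -0.64 to -0.58. Rasgrp1 lost its call without any of the 5 libraries in turn (adjusted p = 0.0578 to 0.284), so 1 Ras gene, Rasa2, was lower without Runx3 +/WRPW library 2.

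Negative regulators held the largest differences, in both directions. Of 14 genes 3 were lower, 1 was higher and 10 did not pass. Sla2, which encodes an adaptor that lowers receptor levels at the cell surface (chromosome 2, 156872457 to 156887192), was at 54.4, 56.3 and 55.8 CPM in Runx3 +/WRPW libraries, against 87.8 and 128 CPM in Runx3 +/+ libraries. The Runx3 +/WRPW libraries were nearly equal and the Runx3 +/+ libraries were not, but they did not overlap. It had the lowest log2 fold change of the 58 genes at -0.96 ± 0.15, or 1.95-fold lower (edgeR adjusted p = 0.013).

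Dgka, which encodes diacylglycerol kinase alpha and so removes the activator of Rasgrp1 (chromosome 10, 128720134 to 128744855), was at 955, 915 and 940 CPM in Runx3 +/WRPW, against 1328 and 1580 CPM in Runx3 +/+. Its log2 fold change was -0.63 ± 0.09, or 1.55-fold lower (edgeR adjusted p = 0.00856). Ptpn7, a phosphatase of MAP kinases (chromosome 1, 135132700 to 135145317), was at 81.5, 83.5 and 81.2 CPM in Runx3 +/WRPW, against 109 and 102 CPM in Runx3 +/+. It was 1.28-fold lower, at a log2 fold change of -0.36 ± 0.06 (edgeR adjusted p = 0.0149). In each of these genes the Runx3 +/WRPW libraries were below both Runx3 +/+ libraries.

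Ptpn6, which encodes the phosphatase SHP-1 (chromosome 6, 124720707 to 124738714), went the other way. It was at 734, 771 and 830 CPM in Runx3 +/WRPW libraries, against 608 and 629 CPM in Runx3 +/+ libraries. Every Runx3 +/WRPW library was higher, and the log2 fold change was 0.33 ± 0.08, or 1.26-fold higher (edgeR adjusted p = 0.0381).

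Several other negative regulators had every Runx3 +/WRPW library above both Runx3 +/+ libraries and did not pass edgeR's test. Ubash3b, the gene of the phosphatase Sts-1, was at 16.8, 25.0 and 11.9 CPM in Runx3 +/WRPW, against 10.0 and 8.87 CPM in Runx3 +/+. This was the largest positive log2 fold change of the 58 genes, 0.91 ± 0.31, and its Runx3 +/WRPW libraries spread over more than the difference (edgeR adjusted p = 0.109). Ptpn22, a phosphatase that acts on Lck, was at 0.54 ± 0.19 (edgeR adjusted p = 0.122), with Runx3 +/+ libraries at 331 and 205 CPM. Sla, the relative of Sla2, was at 0.41 ± 0.11 (edgeR adjusted p = 0.0625), the ubiquitin ligase gene Cblb at 0.34 ± 0.10 (edgeR adjusted p = 0.0801) and Ptpn2 at 0.16 ± 0.07. Cbl, Dgkz, Ubash3a and Csk, the kinase that silences Lck, were between -0.08 and 0.14, and Pag1, which anchors Csk, was at -0.31 ± 0.08 (edgeR adjusted p = 0.0611). DESeq2 called 5 negative regulators higher and 4 lower, adding Ubash3b, Ptpn22, Sla and Cblb to Ptpn6 on the higher side and Pag1 on the lower. The stricter filter of 1 CPM added Sla and Pag1.

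Sla2 passed in all 13 other settings (adjusted p of at most 0.0479), with a log2 fold change of -1.25 without Runx3 +/+ library 1 and -0.67 without Runx3 +/+ library 2. Dgka lost its call without Runx3 +/+ library 2 (adjusted p = 0.071), Ptpn7 without each library but Runx3 +/WRPW library 2 (adjusted p = 0.0537 to 0.0907) and Ptpn6 without any of the 5 (adjusted p = 0.0712 to 0.341). Ptpn22 passed without Runx3 +/+ library 1 (log2 fold change 0.89, adjusted p = 0.0238). Leaving out Runx3 +/WRPW library 2 gave 3 lower and 0 higher negative regulators. Sla2 shares 23.6% of its exon length with Rab5if on the opposite strand and Ptpn6 shares 6.96% with the antisense gene Gm20531. The level of Rab5if is not given here. All 13 other settings use the same read counts, so they do not bear on reads shared by Sla2 and Rab5if. Dgka shares 2.2% with Pmel, which was lower as well, at 9.66 ± 0.814 CPM in Runx3 +/WRPW (SD, n = 3) and 16.9 ± 1.4 CPM in Runx3 +/+ (SD, n = 2).

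**Figure D2:**
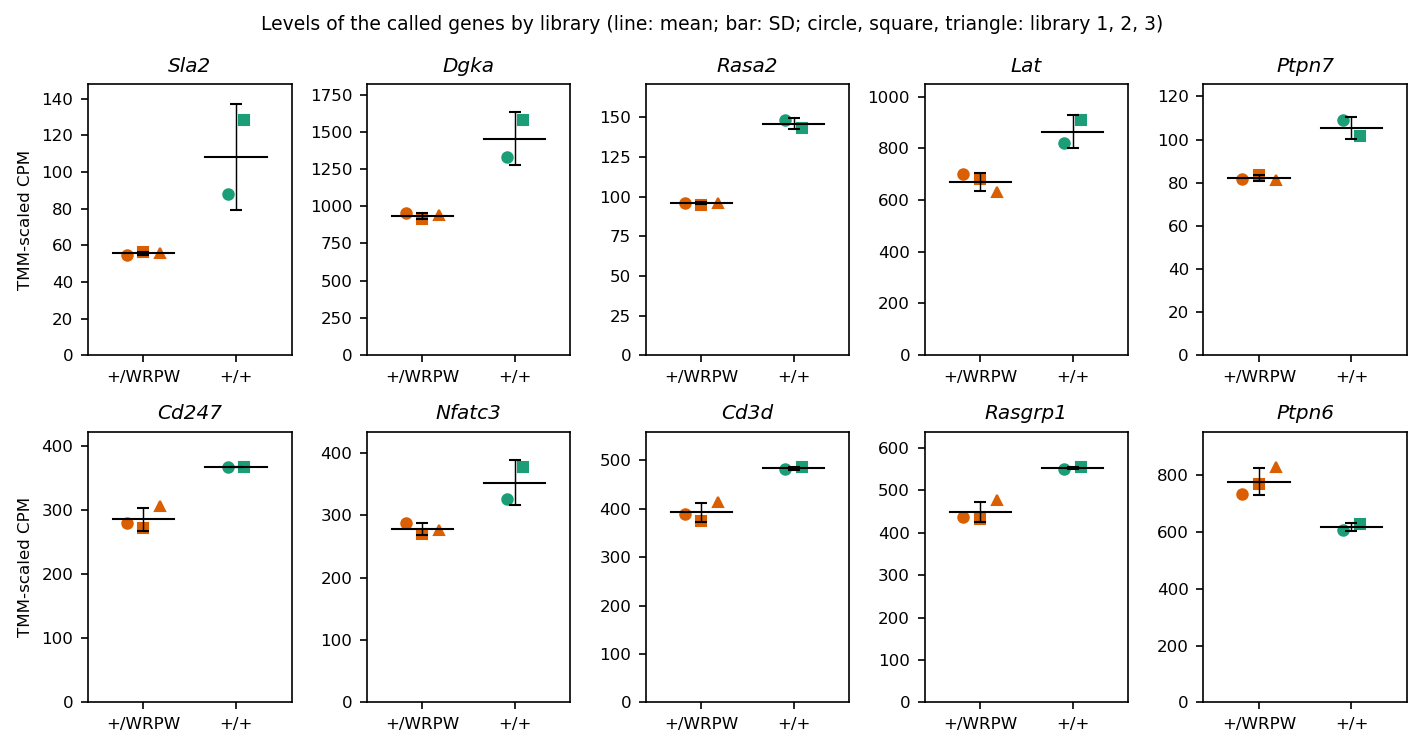
TMM-scaled CPM (y axis, from 0) of the 10 called genes in each library, with Runx3 +/WRPW left of Runx3 +/+, lines for means and bars for SD. In every panel the 3 Runx3 +/WRPW libraries lie on 1 side of both Runx3 +/+ libraries, above them in Ptpn6 and below them in the other 9 genes.

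CD45, the receptor phosphatase that keeps Lck active and is encoded by Ptprc, had the highest CPM of the 58 genes. It was at 3594, 3419 and 3967 CPM in Runx3 +/WRPW libraries and at 3716 and 3376 CPM in Runx3 +/+ libraries. The groups overlapped, and the log2 difference was 0.05 ± 0.09 (edgeR adjusted p = 0.775).

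Calcium release channels of the inositol trisphosphate receptor family gave 0 calls of 3 in edgeR, with 1 unadjusted p under 0.05. DESeq2 called 1 (Itpr2, higher) and limma-voom 0. Itpr2 was at 466, 444 and 492 CPM in Runx3 +/WRPW, against 333 and 400 CPM in Runx3 +/+. All Runx3 +/WRPW libraries were above, with a log2 fold change of 0.35 ± 0.10 (edgeR adjusted p = 0.0698), and with upper-quartile factors it passed. Itpr3 was at 374, 336 and 369 CPM in Runx3 +/WRPW and at 357 and 441 CPM in Runx3 +/+, which overlap, and Itpr1 was at -0.03 ± 0.08 on the log2 scale. No channel gene passed without Runx3 +/WRPW library 2.

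Nfatc3, an NFAT factor of developing thymocytes, was lower. The gene (chromosome 8, 106058840 to 106130537) was at 288, 270 and 277 CPM in Runx3 +/WRPW libraries, against 327 and 378 CPM in Runx3 +/+ libraries. The groups were apart, and the log2 fold change was -0.34 ± 0.08, or 1.26-fold lower (edgeR adjusted p = 0.0462). Nfatc1 was at 228, 242 and 222 CPM in Runx3 +/WRPW and at 249 and 238 CPM in Runx3 +/+, with overlap (log2 fold change -0.08 ± 0.07, edgeR adjusted p = 0.486).

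The remaining genes of this group were above 0 on the log2 scale. Nfatc2 was at 125, 98.7 and 111 CPM in Runx3 +/WRPW and at 91.0 and 90.0 CPM in Runx3 +/+, with a log2 fold change of 0.30 ± 0.10 that did not pass (edgeR adjusted p = 0.112). Rcan1, an NFAT target that inhibits calcineurin, was at 12.4, 12.4 and 9.98 CPM in Runx3 +/WRPW and at 9.43 and 9.23 CPM in Runx3 +/+ (edgeR adjusted p = 0.205). The call of Nfatc3 was lost without any of the 5 libraries in turn (adjusted p = 0.0872 to 0.356), and without Runx3 +/WRPW library 2 Nfatc2 was called higher (log2 fold change 0.38, adjusted p = 0.0482), so that 1 NFAT gene was higher and 0 lower. Nfatc3 shares 1.87% of its exon length with Esrp2 on the opposite strand. Esrp2 was scarce and lower as well, at 0.272 ± 0.0407 CPM in Runx3 +/WRPW (SD, n = 3) and 1.26 ± 0.197 CPM in Runx3 +/+ (SD, n = 2).

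NF-kB genes gave 0 calls of 8 in edgeR, in DESeq2 and in limma-voom, with 1 unadjusted p under 0.05 in edgeR. Nfkb1, which encodes the p50 subunit precursor, was at 377, 301 and 342 CPM in Runx3 +/WRPW libraries and at 391 and 432 CPM in Runx3 +/+ libraries, at a log2 fold change of -0.27 ± 0.11 (edgeR adjusted p = 0.152). Nfkbia, the gene of the inhibitor IkB-alpha and itself an NF-kB target, was at 243, 232 and 218 CPM in Runx3 +/WRPW and at 201 and 217 CPM in Runx3 +/+, at 0.14 ± 0.08. The subunit genes Nfkb2, Rel, Rela and Relb and the nuclear inhibitor gene Nfkbid lay between -0.17 and 0.06, and Tnfaip3, the gene of the deubiquitinase A20, was at 0.30 ± 0.13 (edgeR adjusted p = 0.194). These 8 genes had 4 log2 fold changes on each side of 0, and there was no call without Runx3 +/WRPW library 2.

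Several related genes differed in opposite directions or by unequal amounts. Ratios between relatives within a library do not depend on the scaling between libraries, and the pairs below were chosen after their values were seen, so they carry no test. The ratio of Sla2 to Sla was 0.251, 0.231 and 0.279 in Runx3 +/WRPW libraries, against 0.492 and 0.837 in Runx3 +/+ libraries. That of Dgka to Dgkz, the diacylglycerol kinase genes, was 1.23, 1.12 and 1.29 in Runx3 +/WRPW, against 1.74 and 2.09 in Runx3 +/+. In both pairs the first gene made up less of the sum in every Runx3 +/WRPW library.

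Rasa2 over Rasa1 gave 0.562, 0.585 and 0.539 in Runx3 +/WRPW and 0.833 and 0.773 in Runx3 +/+. Nfatc2 over Nfatc3 ran the other way, at 0.434, 0.366 and 0.399 in Runx3 +/WRPW and 0.279 and 0.238 in Runx3 +/+, as did Itpr2 over Itpr3, at 1.24, 1.32 and 1.33 in Runx3 +/WRPW and 0.932 and 0.908 in Runx3 +/+. Fyn over Lck was 0.539, 0.552 and 0.562 in Runx3 +/WRPW and 0.486 and 0.452 in Runx3 +/+. Of 11 pairs computed, 10 did not overlap between the genotypes, with no share over all gene pairs to set beside it. The ratio of Cblb to Cbl overlapped, at 0.396, 0.425 and 0.341 in Runx3 +/WRPW and 0.353 and 0.317 in Runx3 +/+.

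**Figure D3:**
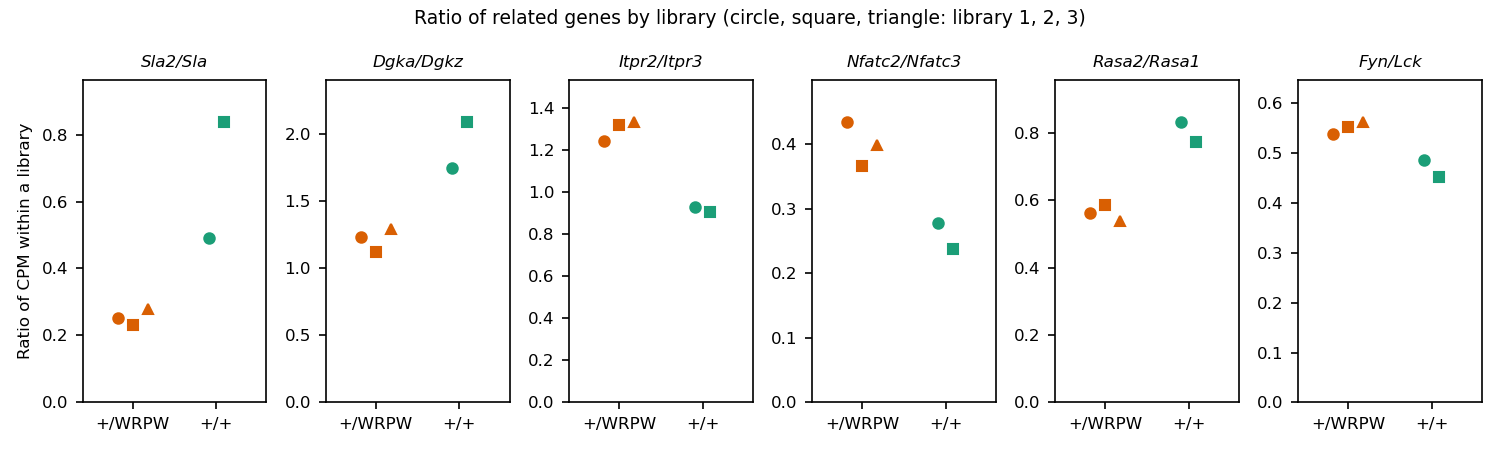
Ratio of CPM of related genes within each library (y axes from 0), with Runx3 +/WRPW left of Runx3 +/+ and 1 symbol per library. The Dgka to Dgkz ratio is 1.12 to 1.29 in Runx3 +/WRPW and 1.74 to 2.09 in Runx3 +/+, and in none of the 6 pairs drawn do the genotypes overlap.

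Promoter sequences of the listed genes were searched for the core letters of the Runx binding site, since Runx3 is the gene altered. RefSeq windows (GRCm38.p6) of 300 bases, from 250 before to 50 after the start site, were matched by symbol for 48 of the 58 genes and for all 10 called ones. The motifs were TGTGGT and TGCGGT on either strand, and no site can match both. At least 1 match was present in 8 of the 48 windows (16.7%), in 2 of the 10 windows of called genes and in 22.4% of 32851 windows of all genes in the table. Those 8 were Lck, Fyn, Lat, Sos1, Rasa1, Ubash3a, Sla2 and Rel. A match is only a run of letters, and these data do not measure binding.

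The windows below are those of the called genes with a match, Lat and Sla2, of Lck, the most abundant gene per length, which has a match without a call, and of Rasa2, which had the smallest p and no match. They are printed 5′ to 3′ on the strand of the gene, with the matched letters in capitals. Lat is at chr7:126369519-126369818, minus strand, and its match begins at position -5, counted back from the start site. Sla2 is at chr2:156887172-156887471, minus strand, with a match beginning at position -11. Lck is at chr4:129573592-129573891, minus strand, with a match at position -58. Rasa2 is at chr9:96631454-96631753, minus strand. In Lat and Sla2 the letters read ACCACA, the reverse complement of TGTGGT.
Lat: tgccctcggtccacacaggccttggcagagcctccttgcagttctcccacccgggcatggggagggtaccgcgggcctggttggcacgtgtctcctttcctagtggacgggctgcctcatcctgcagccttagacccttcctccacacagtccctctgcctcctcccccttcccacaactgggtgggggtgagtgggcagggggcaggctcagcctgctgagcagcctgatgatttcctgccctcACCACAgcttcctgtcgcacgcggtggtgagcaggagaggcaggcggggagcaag
Sla2: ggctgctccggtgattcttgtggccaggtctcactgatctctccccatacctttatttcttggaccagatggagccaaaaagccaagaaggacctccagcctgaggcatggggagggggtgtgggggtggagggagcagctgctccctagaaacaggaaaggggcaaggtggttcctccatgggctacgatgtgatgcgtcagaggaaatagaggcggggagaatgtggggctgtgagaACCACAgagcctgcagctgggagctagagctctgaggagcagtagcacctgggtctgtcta
Lck: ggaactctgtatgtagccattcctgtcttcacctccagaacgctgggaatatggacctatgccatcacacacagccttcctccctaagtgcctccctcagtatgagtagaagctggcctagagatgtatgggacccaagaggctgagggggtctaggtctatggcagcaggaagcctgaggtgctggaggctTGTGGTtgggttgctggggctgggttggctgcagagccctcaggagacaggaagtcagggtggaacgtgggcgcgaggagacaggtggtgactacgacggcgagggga
Rasa2: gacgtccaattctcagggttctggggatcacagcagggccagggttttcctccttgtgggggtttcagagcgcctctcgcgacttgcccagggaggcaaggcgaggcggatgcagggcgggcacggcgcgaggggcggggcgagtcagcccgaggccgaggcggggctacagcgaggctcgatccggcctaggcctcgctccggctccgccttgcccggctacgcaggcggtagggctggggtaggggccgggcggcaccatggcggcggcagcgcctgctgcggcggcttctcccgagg

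Other genes of the same pathway, from a list of 97 drawn from textbook knowledge, set the 58 in context. Of these, 96 had a row and 93 were tested, and 17 passed (18.3%, beside 13.6% of all tested genes). Of the 17, 9 were higher (9.68% of the 93, beside 6.24% of all tested genes) and 8 lower (8.6%, beside 7.33%). The median log2 fold change of the 93 was -0.05. Of the 93, 7 reached 2-fold and 6 of these were called, where none of the 58 reached 2-fold. DESeq2 called 30, beside 19.8% of all tested genes. Without Runx3 +/WRPW library 2 the edgeR counts were 6 higher and 7 lower, beside 10.8% of all tested genes called. Leaving out Runx3 +/WRPW library 1 gave 8 calls beside 5.71% of all tested genes, and leaving out library 3 gave 9 beside 6.97%. The genotypes did not overlap in 56 of the 93 (60.2%), beside 48.5% of all tested genes.

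Several of these genes encode membrane adaptors and brakes. Lax1, an adaptor that limits receptor signals, was at 303 ± 7.75 CPM in Runx3 +/WRPW (SD, n = 3) and 147 ± 16.6 CPM in Runx3 +/+ (SD, n = 2), 2.07-fold higher (edgeR adjusted p = 0.00206). Ptprj, the receptor phosphatase CD148, was 3.85-fold higher (edgeR adjusted p = 0.00428), at 20.4 ± 3.2 CPM in Runx3 +/WRPW and 5.33 ± 1.32 CPM in Runx3 +/+. Sit1 was 2.85-fold lower (edgeR adjusted p = 0.00832), Trat1, a partner of the receptor complex, 3.4-fold lower (edgeR adjusted p = 0.0168) and Dok2 1.66-fold lower (edgeR adjusted p = 0.00195). Lax1 was thus higher and Dok2, which limits Ras signalling downstream of the receptor, lower, so genes known as brakes were called in both directions, as they were among the 58.

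Rasgrp2, the relative of Rasgrp1 that activates Rap1, was at 192 ± 18.3 CPM in Runx3 +/WRPW (SD, n = 3) and 520 ± 105 CPM in Runx3 +/+ (SD, n = 2), 2.72-fold lower (edgeR adjusted p = 0.00322). Prkcb, protein kinase C-beta, was 1.45-fold lower (edgeR adjusted p = 0.015), and Rac2 1.26-fold lower (edgeR adjusted p = 0.0191). In the phosphoinositide 3-kinase branch Pik3r1, the regulatory subunit gene, was 1.68-fold higher (edgeR adjusted p = 0.00707) and the lipid phosphatase gene Inpp4b 1.94-fold higher (edgeR adjusted p = 0.0158). The further called genes were Ppp3cc, a calcineurin subunit, Nfat5, Vav3, Orai3 and Wipf1, all higher, and Tagap and Orai1, both lower. Vav3, Orai3, Wipf1, Tagap and Orai1 lost their calls without any of the 5 libraries in turn. Nfat5 kept its call in 1 of those 5 fits and Ppp3cc in 3.

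Of these 10 genes Lax1, Dok2 and Rasgrp2 kept their calls without any of the 5 libraries in turn. Ptprj and Pik3r1 lost theirs without Runx3 +/+ library 2 (edgeR adjusted p = 0.0636 and 0.0824). Sit1 and Inpp4b lost theirs without either Runx3 +/+ library (adjusted p up to 0.114 and 0.134), and Prkcb and Trat1 also without Runx3 +/WRPW library 1 (adjusted p up to 0.19 and 0.206). Rac2 kept its call without Runx3 +/WRPW library 2 and lost it otherwise (adjusted p up to 0.133).

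**Figure D4:**
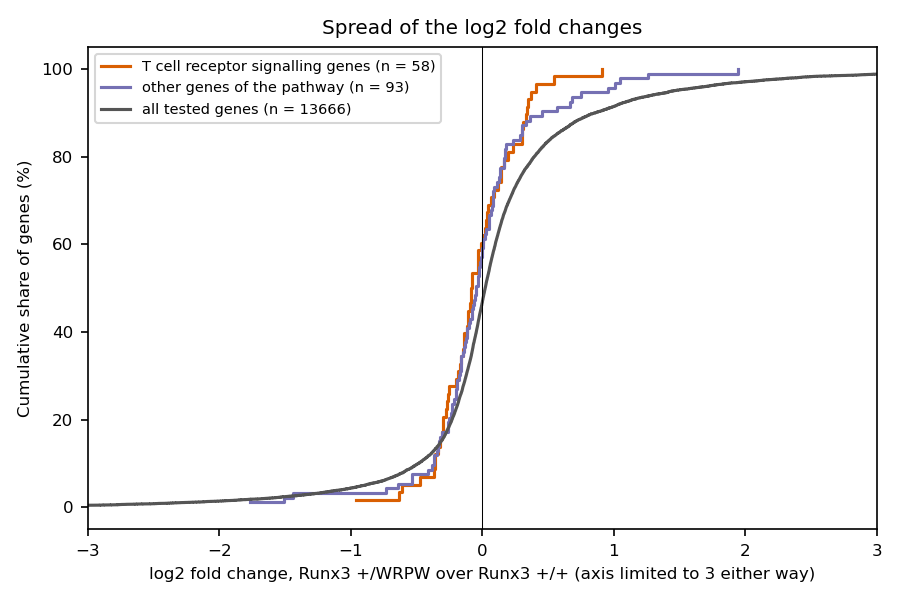
Cumulative share of genes (y axis, percent) by log2 fold change, Runx3 +/WRPW over Runx3 +/+ (x axis), for the 58 genes, the 93 other tested pathway genes and all 13666 tested genes. The curve of the 58 genes runs from -0.96 to 0.91, and the other curves reach further out on both sides.

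**Figure D5:**
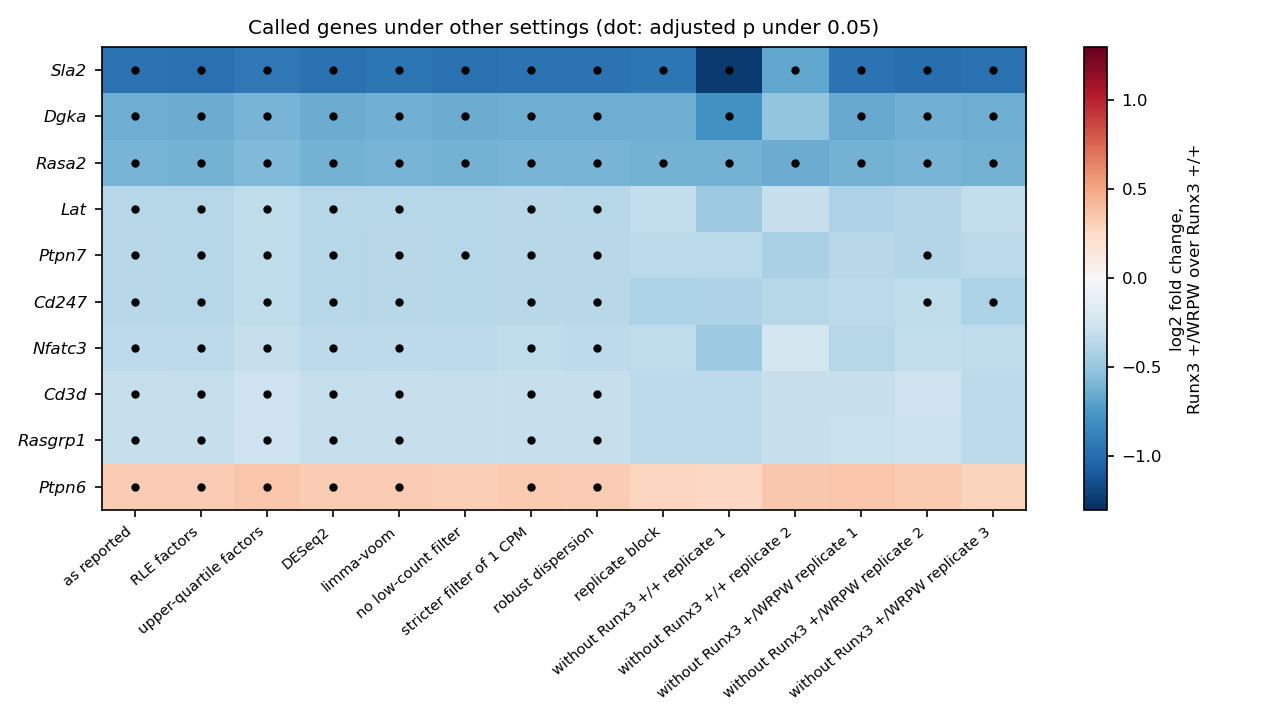
Log2 fold change (colour) of the 10 called genes as reported and under 13 other settings, with a dot where the adjusted p is under 0.05. Signs are the same in every column and Rasa2 and Sla2 have a dot in all of them. Cd3d, Lat, Rasgrp1, Ptpn6 and Nfatc3 have none with no low-count filter, with the replicate block or with any of the 5 libraries left out.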

How the data were processed

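Total RNA from 5 libraries was measured. The authors deposited raw counts of reads per gene symbol, 1 file per sample, without normalization. The submitters' processing notes list HISAT2 2.2.1, featureCounts 2.0.8, cutadapt 4.0 and edgeR 3.36.0, with mm10 as the genome. The strand mode and annotation of the counting are not stated in the sources used here. Groups came from the genotype labels and files from the sample records, since 2 file headers name no matching replicate. No libraries agreed within sampling noise (smallest chi-square per gene 15.4).

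Genotypes were compared with edgeR 4.0.16 in R 4.3.3 (minimum count 10 in filterByExpr, TMM, glmQLFit and glmQLFTest), with Benjamini-Hochberg adjustment over 13666 genes at 0.05. The SE is the log2 fold change over the root of F. The code was tested on simulated counts. Lengths, positions and overlaps came from GENCODE M21, promoters from RefSeq. Other settings used RLE or upper-quartile scaling, limma-voom (limma 3.58.1), DESeq2 1.42.0, no filter or 1 CPM, robust dispersion, a replicate block, or 4 of the 5 libraries. Genes, lists and tests were chosen with earlier results of these data known. Values were given for every called gene, for the highest genes by CPM where a role had fewer than 2 called, and for the 10 other pathway genes with the smallest p-values. Library values of further genes, Pou2f1, Pmel, Esrp2, the ratios and the printed promoters were chosen after values were seen. The lowest count of the 58 genes in any library was 199.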

Additional observations from a re-analysis of the deposited data

How the results depend on the processing

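All 10 called genes kept their direction in the 13 other settings, and Rasa2 and Sla2 also their call. The number called among the 58 genes was 22 with DESeq2 (8 higher, 14 lower), 4 with no low-count filter (0 higher, 4 lower), and with upper-quartile factors or a stricter filter 2 were higher. Over the fits that left out 1 library it was 2 to 8, with 0 to 1 higher and 2 to 7 lower. With the replicate number as a block, 2 were called (0 higher, 2 lower), 10 of the other pathway genes (5 and 5) and 754 of all genes (327 and 427). Numbers 1 and 2 occur in both genotypes and nothing in the labels says that they pair animals. Runx3 +/WRPW library 3 has no Runx3 +/+ library of its number, so in this fit it adds nothing to the comparison of genotypes. Whether the lost calls come from that or from the numbers was not tested. The deviations of same-numbered libraries correlated at -0.0492 and 0.00244. Of the other pathway genes DESeq2 called 30 (19 lower), the fit with no filter called 5 lower, and leaving out 1 library gave 3 to 13, with 1 to 6 higher and 2 to 7 lower. All genes called numbered 1079 with no filter (442 higher, 637 lower, of 28583 tested) and 277 to 1431 with 1 library left out (106 to 585 higher, 171 to 846 lower). The fits without a Runx3 +/+ library tested 18369 and 18169 genes and assume that the lone library varies like the other genotype. The cause of the other shifts was not tested. Genes near 0 changed sign without a call. Ubash3a was at -0.00073 with RLE factors, -0.0022 with no filter and -0.088 to 0.057 with 1 library left out, and Ptprc was at -0.015 under the block and -0.030 to 0.090 with 1 library left out. Nfkbid was at 0.026 with upper-quartile factors and -0.11 to 0.054 with 1 library left out. Over those fits Vav1 ran from -0.017 to 0.059, Nck1 from -0.12 to 0.011, Dgkz from -0.015 to 0.069, Itpr1 from -0.094 to 0.0087, Itpr3 from -0.33 to 0.0023, Nfkb2 from -0.088 to 0.089 and Rela from -0.011 to 0.11.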
